A study of Mus musculus with 4 samples.

Results

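The 9 genes described here encode receptors by which B cells find their place in lymphoid tissue and leave it, together with Klf2, a transcription factor linked to several of them. They were taken from the 55401 rows of the deposited gene table by symbol (Ccr7, Ccr6, Cxcr4, Cxcr5, Gpr183, S1pr1, S1pr3, S1pr4 and Klf2), and all 9 passed the filter on low counts that left 14180 genes for testing. The study compared cultured splenic B cells of C57BL/6 mice, wild type or labelled Adar1 cKO, a conditional knockout in B cells of the enzyme that edits adenosine to inosine in double-stranded RNA, with 2 libraries per genotype. All 4 cultures were enriched with anti-CD43 beads and then kept for 36 h with antibodies to CD40 (1 µg/ml) and to IgM (10 µg/ml), so no unstimulated B cells enter the comparison. The labels give neither the Cre line, nor the deleted part of the gene, nor the ages of the mice, and they do not say whether the 2 libraries of a genotype came from separate mice, so p-values measure the spread between these libraries, which may be technical.

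Chemokine receptors couple to inhibitory G proteins and guide B cells along ligand gradients: CXCR5 follows CXCL13 into follicles, CCR7 follows CCL19 and CCL21 to the T-cell zone, CXCR4 follows CXCL12 and CCR6 follows CCL20. GPR183, also called EBI2, senses the oxysterol 7α,25-dihydroxycholesterol and holds activated B cells at follicle edges. The sphingosine 1-phosphate (S1P) receptors read a lipid that is high in blood and lymph and low inside tissue, so that S1PR1 drives egress and S1PR3 is known from marginal zone B cells. KLF2 is a Krüppel-like zinc finger factor of quiescent lymphocytes, which in T cells activates S1pr1, and in B cells is known for its part in follicular homing and the restraint of marginal zone fate.

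Total counts lay between 17327480 and 19669651 per library. Adar itself stood at 137 and 149.8 CPM (counts scaled to library size with TMM factors) in wild type and at 218 and 232 CPM in the libraries labelled cKO, a rise of 0.65 ± 0.0627 on the log2 scale. Adar RNA thus moved opposite to what a knockout label implies, although whole-gene counts cannot check the loss of a few exons, so the second genotype is called cKO-labelled here and every direction is drawn from that label. The B-cell gene Cd79a (729 to 962 CPM over the 4 libraries), a chain of the antigen receptor complex, was abundant in every library, while the T-cell receptor chain gene Cd3e had between 0 and 3 counts. Cd79a was lower in cKO-labelled libraries (729 and 743 against 962 and 906 CPM, a log2 difference of -0.34). Ribosomal RNA took 0.525% of the counts of wild-type library 2, against 0.0947% to 0.125% elsewhere, and without that library the differences of the 6 called genes below ranged from -1.01 to 1.51 with the same signs. In bulk RNA, fewer cells of a type and less RNA per cell cannot be told apart.

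Trafficking genes changed in both directions. Of the 9 genes, 4 were higher (S1pr3, Ccr7, Cxcr4 and Ccr6) and 2 lower (Klf2 and S1pr4) in cKO-labelled libraries, and 3 (Cxcr5, Gpr183 and S1pr1) were not called. Calls are Benjamini-Hochberg adjusted p-values under 0.05 from edgeR's quasi-likelihood test over all 14180 genes, by which 21.7% of the genes tested were called, 12.2% as higher and 9.54% as lower. The median log2 difference of the 9 genes was 0.17, against -0.0058 over all genes tested. Libraries of the 2 genotypes did not overlap for 7 of the 9 genes, as was so for 57.9% of the genes tested. Changes of at least 2-fold were reached by S1pr3, Ccr7 and Klf2, and such calls made up 4.88% of the genes tested (4.06% higher and 0.825% lower).

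**Figure D1:**
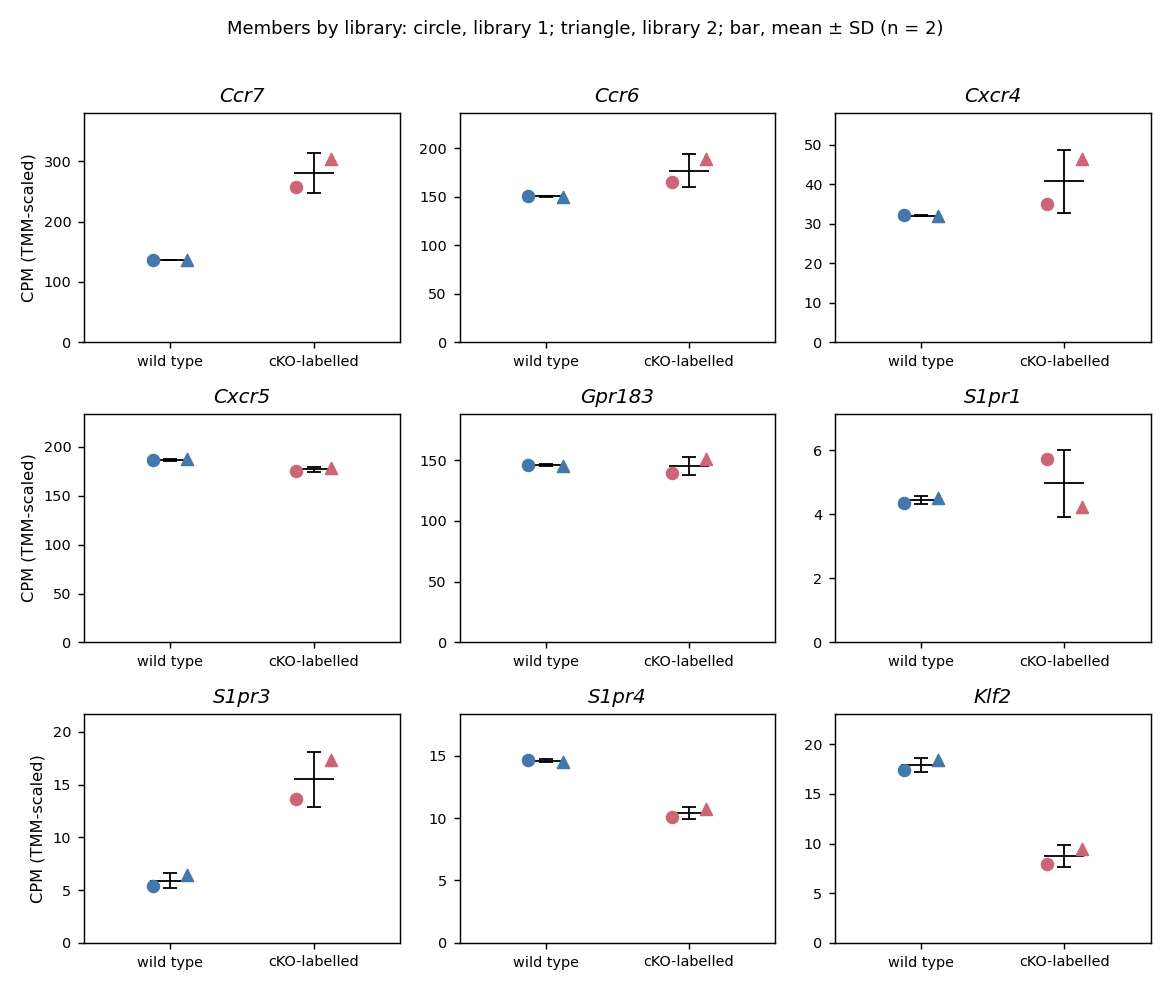
TMM-scaled CPM (linear axis from 0) of each of the 9 genes in the wild-type and cKO-labelled libraries; circles are library 1, triangles library 2, and bars the mean ± SD (n = 2). Relative to their levels, Ccr7, S1pr3 and Klf2 show the widest gaps between genotypes, and cKO-labelled library 2 lies above library 1 for 8 of the 9 genes, all but S1pr1.

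Klf2 (ENSMUSG00000055148, GRCm38 chromosome 8, 72319033 to 72321656, plus strand) fell about 2-fold. It was counted 301 and 363 times in the wild-type libraries and 143 and 166 times in the cKO-labelled ones, or 17.4 and 18.4 against 7.93 and 9.50 CPM. Both cKO-labelled values lay well below both wild-type values. Means were 17.9 ± 0.70 and 8.72 ± 1.11 CPM (SD, n = 2), a log2 difference of -1.04 ± 0.147 (SE; 95% interval -1.35 to -0.74; edgeR quasi-likelihood test, adjusted p 1.05e-05). The 4 pairings of one library of each genotype gave log2 differences from -1.22 to -0.88. Klf2 transcripts are rich in G and C (61.6%, above 98.1% of the genes tested), and removal of the GC trend of each library left a log2 difference of -0.93 (edgeR, adjusted p 7.48e-05).

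The upstream sequence of Klf2 is printed because a factor known to drive this gene, MEF2, acts through a short AT-rich element there, and those of S1pr4 and S1pr3 because they are the S1P receptor genes that changed. Sequences are RefSeq windows of 250 bases before the annotated start on GRCm38.p6, in the direction of the gene, with matches to the searched motifs in capitals. That of Klf2 (chr8:72318812-72319032, plus strand) stops just before the gene's first base in the deposited table and is 221 bases long, that of S1pr4 is chr10:81500138-81500387 (minus strand) and that of S1pr3 chr13:51408368-51408617 (plus strand).
Klf2: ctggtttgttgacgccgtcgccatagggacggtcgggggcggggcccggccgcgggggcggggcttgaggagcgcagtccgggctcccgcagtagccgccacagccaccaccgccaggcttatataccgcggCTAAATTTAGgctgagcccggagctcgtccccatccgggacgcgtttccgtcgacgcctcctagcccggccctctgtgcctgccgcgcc
S1pr4: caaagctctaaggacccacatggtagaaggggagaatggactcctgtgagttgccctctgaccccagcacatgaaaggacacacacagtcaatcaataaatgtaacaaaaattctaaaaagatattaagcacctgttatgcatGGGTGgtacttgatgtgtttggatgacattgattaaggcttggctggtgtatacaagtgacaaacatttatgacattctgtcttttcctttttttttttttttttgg
S1pr3: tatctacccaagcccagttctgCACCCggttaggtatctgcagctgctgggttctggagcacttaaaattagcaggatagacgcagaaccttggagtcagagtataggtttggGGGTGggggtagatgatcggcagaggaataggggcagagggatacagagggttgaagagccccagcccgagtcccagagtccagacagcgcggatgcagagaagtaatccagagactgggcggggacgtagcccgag
The capitals mark a MEF2-type motif in Klf2, and CACCC or its reverse complement (KLF type) in the other 2.

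The MEF2-type match of Klf2 reads CTAAATTTAG, lies 118 to 109 bases before the RefSeq start and is its own reverse complement. It was the only such match among 7 windows of the 6 genes with an entry (Klf2, S1pr4, S1pr3, Cxcr4, Gpr183 and Ccr6, the last with 2 windows), and 3.20% of all 32851 windows held one. CACCC on either strand was found in 4 of the 6 genes (Klf2, 19 to 15 bases before the RefSeq start and so outside the printed stretch, S1pr4, S1pr3 and Cxcr4), close to its share of 52.0% among all windows. The interferon-stimulated response element type (2.98% of all windows), GTAAACA (FOXO type; 3.17%) and the NF-kB type (0.356%), searched on both strands, were not in the 7 windows. No 2 of these motifs overlapped in the printed sequences, and a match is a description of letters, not of binding. Ccr7, Cxcr5 and S1pr1 had no entry.

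Among the S1P receptors S1pr3 rose, S1pr4 fell and S1pr1 was not called. S1pr3 (ENSMUSG00000067586, chromosome 13, 51408639 to 51422797) was counted 93 and 126 times in the wild-type libraries and 246 and 303 times in the cKO-labelled ones, or 5.39 and 6.40 against 13.6 and 17.3 CPM. The groups were far apart, with the lower cKO-labelled library above 2-fold of the higher wild-type one (lowest of the 4 pairings 1.09 on the log2 scale, highest 1.69). Its log2 difference was 1.39 ± 0.175 (95% interval 1.03 to 1.75; edgeR quasi-likelihood test, adjusted p 1.98e-06). It was larger in size than that of 96.1% of the genes tested. Gm32834 shares 45 exonic bases with S1pr3 on the opposite strand and had 0 to 3 counts per library.

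S1pr4 (ENSMUSG00000044199, chromosome 10, 81497747 to 81500132) encodes a receptor largely restricted to blood cells. It was counted 253 and 286 times in the wild-type libraries and 182 and 188 times in the cKO-labelled ones, or 14.7 and 14.5 against 10.1 and 10.8 CPM. The genotypes did not overlap and libraries within a genotype lay close together. The log2 difference was -0.49 ± 0.145 (95% interval -0.79 to -0.18; edgeR quasi-likelihood test, adjusted p 0.0181). This call was lost without wild-type library 1 (adjusted p 0.0642), without wild-type library 2 (0.0578), without cKO-labelled library 1 (0.0671), after removal of the GC trend (-0.37, 0.0743) and with DESeq2 (0.0875), while the difference stayed below 0 in each. Its transcript has 59.3% GC, above 94.8% of the genes tested. Ncln, which lies 1354 bases from S1pr4 on the same strand, was also lower, by 0.41 on the log2 scale.

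S1pr1 (ENSMUSG00000045092, chromosome 3, 115710433 to 115715072), the egress receptor, was low, with a mean CPM above that of 27.7% of the genes tested. It was counted 75 and 89 times in the wild-type libraries and 103 and 74 times in the cKO-labelled ones, or 4.35 and 4.52 against 5.71 and 4.24 CPM. The cKO-labelled libraries lay on either side of the wild-type ones. On the log2 scale the difference was 0.17 ± 0.244, with a 95% interval from -0.34 to 0.67, which covers both a fall and a rise. With these counts and this spread between libraries, changes within that interval cannot be told from none. S1pr2, the S1P receptor of germinal centre B cells, which is outside the 9 genes, was not called (2.67 and 2.69 against 3.83 and 5.04 CPM, edgeR quasi-likelihood test, adjusted p 0.0707), and S1pr5 had at most 1 count in a library.

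Per length, the balance among these receptors shifted. In deposited FPKM (counts scaled to exonic length and library total), the summed level of S1pr1, S1pr3 and S1pr4 was 8.74 and 9.02 in wild type, against 9.18 and 9.80 in cKO-labelled libraries. S1pr4 made up 70.0% and 67.5% of that sum in wild type, against 46.2% and 46.1% in cKO-labelled libraries. S1pr3 made up 13.7% and 16.0% in wild type, against 33.3% and 39.7% in cKO-labelled libraries. The summed level thus moved little while its makeup changed. The FPKM ratio of S1pr3 to S1pr1 was 0.845 and 0.966 in wild type, against 1.63 and 2.80 in cKO-labelled libraries.

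Marginal zone markers were measured beside S1pr3, which is itself known as a gene of those cells. All 7 markers on the list were called, 5 higher (Myof, Plac8, Cd1d1, Cr2 and Cd9) and 2 lower (Dtx1, a Notch target, and Notch2). Over all genes tested, 12.2% were called higher and 9.54% lower. Myof had 6.14 and 6.04 CPM (wild type) and 18.9 and 16.5 CPM (cKO-labelled), a log2 difference of 1.54 ± 0.158. Cr2, the complement receptor CD21, rose by 0.72 ± 0.069 and Cd1d1 by 0.74 ± 0.0978. Cd9, a tetraspanin, rose by 0.55 ± 0.0822. Dtx1 fell by 0.57 and Notch2 by 0.23, and the call of Notch2 was lost without cKO-labelled library 1 (adjusted p 0.18) and after removal of the GC trend (0.0607). The summed level of the list was 483 and 471 CPM (wild type) and 585 and 601 CPM (cKO-labelled). Beside the same 9.54% of all genes, 3 of 4 follicular markers were lower (Fcmr, Ighd and Cd55) and 1, Fcer2a, was not called (356 and 349.9 against 368 and 365 CPM). Their part in the change of S1pr3 was not tested.

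**Figure D2:**
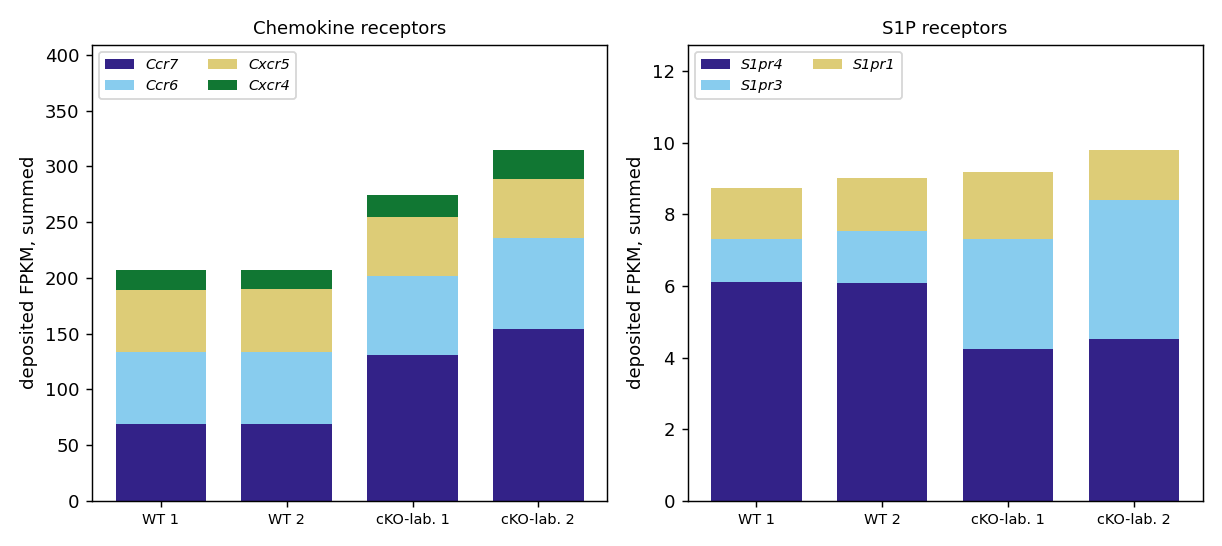
Deposited FPKM of the chemokine receptors (left) and the S1P receptors (right), stacked per library on axes that start at 0. The chemokine receptor sum is higher in both cKO-labelled libraries (274 and 315 against 207 and 208), with Ccr7 taking the larger part of the gap. The sum of S1pr1, S1pr3 and S1pr4 changes less than its makeup.

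Among chemokine receptors Ccr7 rose about 2-fold, Cxcr4 and Ccr6 rose by smaller steps, and Cxcr5 was not called. Ccr7 (ENSMUSG00000037944, chromosome 11, 99144196 to 99155077) was counted 2353 and 2678 times in the wild-type libraries and 4647 and 5309 times in the cKO-labelled ones, or 136 and 136 against 258 and 304 CPM. The wild-type libraries nearly coincided and both cKO-labelled ones lay far above them. The log2 difference was 1.04 ± 0.0687 (95% interval 0.90 to 1.19; fold 2.06; edgeR quasi-likelihood test, adjusted p 3.92e-11). It ranged from 0.92 to 1.16 over the 4 pairings of libraries.

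Ccr7 is also a gene of mature dendritic cells. The 4 tested markers of those cells were all higher, beside 12.2% of all genes tested. Fscn1, an actin bundling protein, rose by 3.21 ± 0.0977, Cacnb3 by 3.15 ± 0.108, Apol7c by 3.10 ± 0.112 and Tmem150c by 2.47 ± 0.374. Their list summed to 40.3 and 45.5 CPM (wild type) and 342 and 426 CPM (cKO-labelled). In this sum cKO-labelled library 2 was the higher of the pair, as it was for every trafficking gene described here except S1pr1. That order thus held for genes that rose, fell or were not called, and it was reversed for Flt3, a general dendritic cell marker (41.9 and 38.3 CPM). Of the 6 general dendritic cell markers 4 were tested and 3 were higher, Flt3 by 1.61 ± 0.107, Zbtb46 by 0.64 ± 0.0787 and Itgax by 2.40 ± 0.48, with list sums of 58.3 and 57.0 against 108 and 113 CPM. On that list Clec9a (1 to 2 counts per library) and Siglech (2 to 14 counts) were near the limit of detection. So was Itgax (0.406 and 0.508 against 2.00 and 2.92 CPM). Xcr1, which was tested and not called, was counted 59 and 61 times in wild type and 83 and 72 times in cKO-labelled libraries. Zbtb46 was counted 704 and 787 times in wild type and 1064 and 1167 times in cKO-labelled libraries. The part of dendritic cell RNA in the rise of Ccr7 was not tested.

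Ccr6 (ENSMUSG00000040899, chromosome 17, 8236043 to 8257141) was counted 2607 and 2955 times in the wild-type libraries and 2977 and 3304 times in the cKO-labelled ones, or 151 and 150.1 against 165 and 189 CPM. The groups did not overlap, but the cKO-labelled libraries differed from each other more than library 1 differed from wild type. On the log2 scale the difference was 0.23 ± 0.065 (edgeR quasi-likelihood test, adjusted p 0.0112). Without cKO-labelled library 2 it was 0.13, with an adjusted p of 0.208.

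Cxcr4 (ENSMUSG00000045382, chromosome 1, 128588199 to 128592293) was counted 555 and 628 times in the wild-type libraries and 632 and 810 times in the cKO-labelled ones, or 32.2 and 31.9 against 35.0 and 46.4 CPM. The groups did not overlap, but library 1 of the cKO-labelled pair lay close to wild type. The log2 difference was 0.34 ± 0.106 (edgeR quasi-likelihood test, adjusted p 0.0215). Without cKO-labelled library 2 it was 0.13 (adjusted p 0.479), after removal of the GC trend 0.30 (0.061) and with DESeq2 0.35 (0.095).

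Cxcr5 (ENSMUSG00000047880, chromosome 9, 44511787 to 44561877), the follicle receptor, was counted 3210 and 3685 times in the wild-type libraries and 3159 and 3125 times in the cKO-labelled ones, or 186 and 187 against 175 and 179 CPM. Both cKO-labelled values were slightly below both wild-type values. On the log2 scale the difference was -0.076 ± 0.0579 and its 95% interval ran from -0.20 to 0.044 (edgeR quasi-likelihood test, adjusted p 0.404). A change in Cxcr5 as large as that of Ccr7 lies outside this interval. Bcl9l overlaps Cxcr5 over 110 exonic bases on the opposite strand, and with libraries that do not mark strand the reads there cannot be told apart.

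The FPKM ratio of Ccr7 to Cxcr5, receptors for the T-cell zone and the follicle, was 1.24 and 1.22 in wild type, against 2.48 and 2.86 in cKO-labelled libraries. Ccr7 made up 33.2% of the summed FPKM of the 4 chemokine receptors in both wild-type libraries and 47.7% and 48.9% in cKO-labelled ones, and Cxcr5 made up 26.9% and 27.1% against 19.2% and 17.1%.

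Gpr183 (ENSMUSG00000051212, chromosome 14, 121952551 to 121965195) was not called. It was counted 2525 and 2862 times in the wild-type libraries and 2522 and 2633 times in the cKO-labelled ones, or 146 and 145 against 139.9 and 151 CPM. The wild-type values fell between the cKO-labelled ones. The log2 difference was -0.0059 ± 0.0604, and the 95% interval ran from -0.13 to 0.12. The gene lies within the span of Ubac2 on the opposite strand, with no exonic base in common. Ch25h, which makes the precursor of its ligand, had at most 1 count in a library, and Cyp7b1 and Hsd3b7 were too low to be tested. Cyp27a1 was not called (2.26 and 1.83 against 1.44 and 1.89 CPM). Among the ligands of the chemokine receptors, Ccl19, Ccl21a, Ccl20 and Cxcl13 had no count in the 4 libraries, and Cxcl12 was not called (1.33 and 0.914 against 1.55 and 0.343 CPM).

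**Figure D3:**
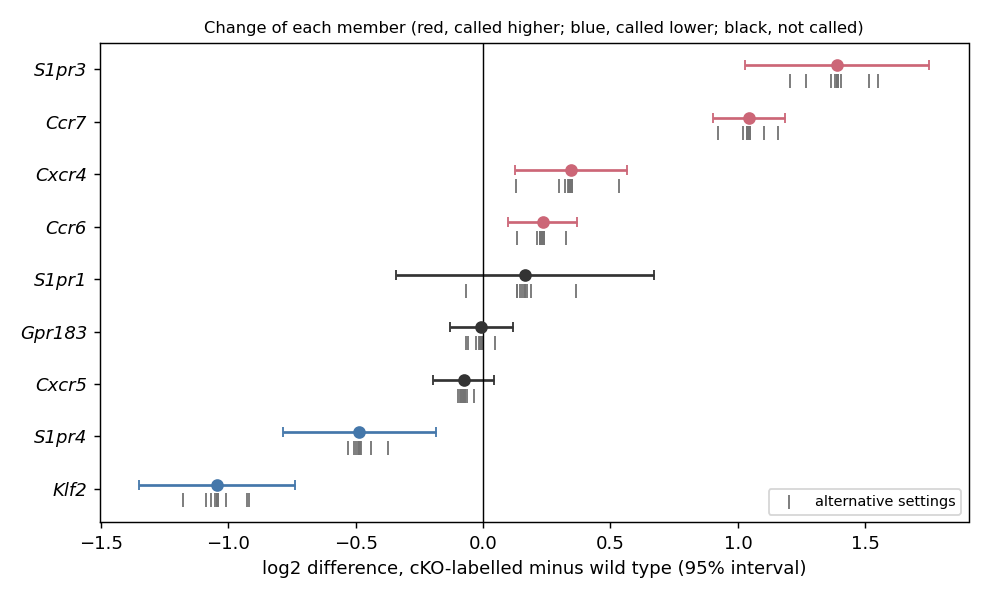
Log2 difference of each of the 9 genes, cKO-labelled minus wild type, with its 95% interval (points and bars) and its value under each alternative setting (grey ticks, 13 for each gene and 12 for S1pr1). S1pr3, Ccr7 and Klf2 stay far from 0 under each setting, whereas Cxcr4 and Ccr6 approach it when cKO-labelled library 2 is left out.

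The order of levels per length was Ccr7, Ccr6, Cxcr5, Gpr183, Cxcr4, Klf2, S1pr4, S1pr1 and S1pr3 in both wild-type libraries, from a mean of 68.7 down to 1.32 FPKM. In both cKO-labelled libraries only S1pr1 and S1pr3 had exchanged places. Neighbours in the order did not overlap between the libraries of a genotype, except S1pr1 and S1pr3 in wild type (1.42 and 1.49 against 1.20 and 1.44 FPKM) and Klf2 and S1pr4 in cKO-labelled libraries (4.30 and 5.15 against 4.24 and 4.52 FPKM). Ccr7 led Ccr6 by 68.7 to 64.8 FPKM in wild type and by 142 to 76.5 FPKM in cKO-labelled libraries. The S1P receptors and Klf2 thus stood below the chemokine receptors and Gpr183, with Klf2 nearest to them (9.70 FPKM against 17.7 for Cxcr4 in wild type).

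Genes reported as KLF2 or FOXO1 targets in lymphocytes changed in both directions, on a list that does not separate activated from repressed targets. Of 11 such genes, 4 were higher (among them Cd69, Ccr7 and Btg1), 3 lower (Itgb7, Il7r and S1pr4) and 4 not called (S1pr1, Cdkn1b, Cdkn1a and Cxcr3). Their median was 0.17, and 21.7% of all genes tested were called. S1pr1, Ccr7 and S1pr4 are also among the 9 genes. Itgb7, the integrin β7 chain of gut homing, had 9.04 and 8.43 CPM (wild type) and 3.72 and 3.26 CPM (cKO-labelled), a log2 difference of -1.32 ± 0.216 (edgeR quasi-likelihood test, adjusted p 6.99e-05). Cd69, whose protein takes S1PR1 off the cell surface, rose from 73.0 and 70.8 to 109 and 103 CPM (0.56 ± 0.0636). Btg1, an antiproliferative gene of resting lymphocytes, rose by 0.37 ± 0.0559. The call of Il7r (-0.54 ± 0.191) was lost without wild-type library 1 (-0.40, adjusted p 0.318), without cKO-labelled library 1 (0.0524) or 2 (0.13) and with DESeq2 (0.167).

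Of 13 known upstream regulators of Klf2 tested, 1 was lower, Foxo3, and none was higher, beside 21.7% of all genes called, with a median of -0.075 and a range from -0.23 to 0.067. Foxo3 had 64.1 and 67.8 CPM (wild type) and 51.9 and 61.0 CPM (cKO-labelled), a difference of -0.23 ± 0.0775 (edgeR quasi-likelihood test, adjusted p 0.0396), and its call was lost under 6 alternatives, among them leaving out wild-type library 2 (0.196) or cKO-labelled library 1 (0.403). Foxo1, the forkhead factor upstream of Klf2 in lymphocytes, had 63.7 and 69.8 against 69.8 and 67.5 CPM. In the KLF family, 12 other members were tested, of which 2 were called, beside the same 21.7% of all genes: Klf6 was higher (0.47 ± 0.064; 102 and 94.2 against 141 and 132 CPM) and Klf13 lower (-0.33 ± 0.0652). The median of the family was 0.013.

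**Figure D4:**
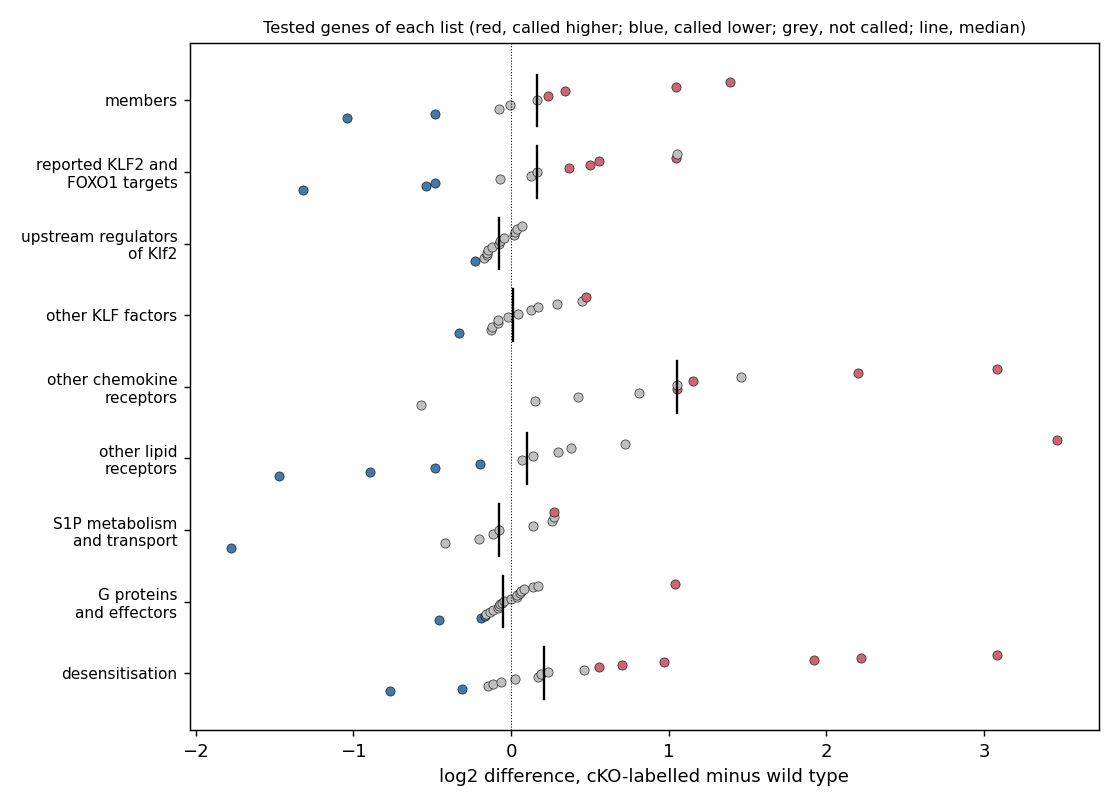
Log2 difference of each tested gene, cKO-labelled minus wild type, by list; red points were called higher, blue lower, grey not called, and black lines are medians. The other chemokine receptors lie mostly to the right (median 1.05, with 4 of 10 called), the upstream regulators of Klf2 lie within -0.23 to 0.067, and the genes of desensitisation reach 3.08.

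Ackr3, Ccrl2 and Gpr34, receptors outside the 9 genes, had larger log2 differences than any of the 9. Of 19 other chemokine receptor genes 10 were tested, with 4 higher, 0 lower and a median of 1.05. That median includes Cxcr3, Cxcr6 and Ccr9, which had positive differences, 4 to 48 counts per library and no call. Over all genes tested, 12.2% were called higher and 9.54% lower. Ackr3, an atypical receptor that scavenges CXCL12, the ligand of CXCR4, rose from 2.96 and 1.78 to 19.4 and 20.3 CPM (3.08 ± 0.20). Ccrl2, which presents chemerin, rose by 2.20 ± 0.171 and the inflammatory receptor gene Ccr1 by 1.05 ± 0.104. Of 10 tested receptors for other lysophospholipids and related lipids, 1 was higher and 4 lower, beside the same shares over all genes. Gpr34, a lysophosphatidylserine receptor, rose from 3.48 and 3.30 to 38.8 and 36.0 CPM (3.46 ± 0.141). Lpar5 fell by 1.47, P2ry10b by 0.90, Lpar2 by 0.48 and Gpr174 by 0.20 on the log2 scale. Lpar2, P2ry10b and Gpr174 were not called with DESeq2 (adjusted p 0.0548, 0.0794 and 0.182). Lpar2 also lost its call without wild-type library 2 (0.079). P2ry10b lost it without wild-type library 1 (0.0715) and without cKO-labelled library 1 (-0.53, 0.222). Gpr174 lost it without wild-type library 1 (0.0587) or 2 (0.264) and without cKO-labelled library 1 (0.152).

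Regulators that switch off chemoattractant signalling changed in both directions. Of 16 tested, beside 21.7% of all genes called, 6 were higher (Rgs1, Grk3, Grk5, Cd69, Rgs16 and Rgs10) and 2 lower (Arrb1 and Grk6), with a median of 0.21. Rgs1, which speeds the inactivation of inhibitory G proteins below chemokine receptors, rose from 2.72 and 3.81 to 28.6 and 27.4 CPM (3.08 ± 0.163, edgeR quasi-likelihood test, adjusted p 6.98e-13). Rgs16, a gene of the same family, rose from 0.754 and 1.83 to 6.16 and 6.12 CPM. The receptor kinase genes Grk3 and Grk5 rose by 1.92 ± 0.176 and 0.97 ± 0.107.

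Of 20 G protein and effector genes tested, 1 was higher and 3 lower, a share close to the 21.7% called over all genes, with a median of -0.05. Pik3r5, a regulatory subunit of PI3Kγ, rose from 259 and 334 to 599 and 572 counts (1.04 ± 0.109), while Pik3cg, its catalytic partner, fell by 0.46. Dock2, the Rac activator of lymphocyte migration, and Coro1a, an actin regulator needed for egress, changed by -0.19 ± 0.057 and -0.16 ± 0.0522. Both calls were lost without cKO-labelled library 1 (adjusted p 0.122 and 0.0848), Dock2 also without wild-type library 2 (0.0813), Pik3cg without wild-type library 1 (0.054), and Coro1a without wild-type library 1 (0.332) and after removal of the GC trend (-0.06, 0.451). Of 9 tested genes of S1P metabolism and transport, 1 was higher, 1 lower and 7 not called, again a share close to 21.7%. Sgpl1, the S1P lyase, was higher (0.27 ± 0.0689) and Spns2, an S1P exporter, lower. Spns2 rested on 14, 26, 8 and 3 counts, and its call was lost under 7 alternatives, each of the 4 single libraries left out among them (adjusted p 0.0641 to 0.425). Sgpl1 was not called without wild-type library 2 (0.0827) or cKO-labelled library 2 (0.0885).

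Among the 5 genes most like Klf2 in shape over the 4 libraries, by Euclidean distance between centred log2(CPM + 0.5) values among 7221 genes of at least 20 CPM, were Prag1 (distance 0.0678), Ptprs (0.162), Lfng (0.165) and Ephx1 (0.165). Prag1 stood at 36.6 and 37.1 CPM (wild type) and 17.3 and 19.7 CPM (cKO-labelled). For S1pr3, which had the largest change of the 9 genes, they were Cacna1e (0.102), Prnp (0.129), Tbc1d9 (0.192), Rnf213 (0.207) and Trim30d (0.257). Rnf213, an interferon-inducible gene, and Trim30d stood at 325 and 344 against 767 and 823 CPM and at 54.7 and 55.1 against 125 and 132 CPM. These points are 4 libraries in 2 genotypes, and no test was made of the likeness.

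**Figure D5:**
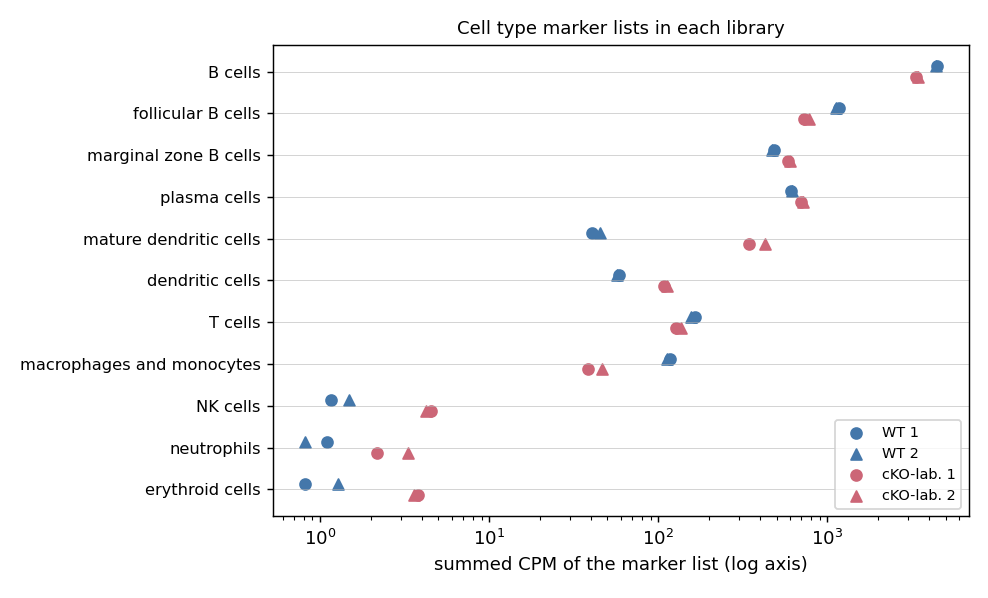
Summed CPM of the marker lists of B-cell subsets and other cell types in each library, on a log axis; blue is wild type, red cKO-labelled, circles are library 1 and triangles library 2. Mature dendritic cell markers move from 40.3 and 45.5 to 342 and 426, marginal zone markers from 483 and 471 to 585 and 601, and B-cell markers from 4439 and 4410 to 3352 and 3452.

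Markers of most other cell types were low. Of 8 T-cell markers 2 were tested, and their summed level of 127 to 164 CPM was almost all Lck, which was lower (-0.30 ± 0.0608), while Cd3d had 4 to 7 counts per library. Summed levels of NK cell, neutrophil and erythroid markers stayed at or below 4.55 CPM and were higher in cKO-labelled libraries, with 4.55 and 4.24 against 1.16 and 1.47 CPM for NK cells. The most abundant of these markers, Prf1, S100a9 and Hbb-bs, were each higher, and S100a9 lost its call without wild-type library 2 (adjusted p 0.235), without cKO-labelled library 2 (0.284) and with DESeq2 (0.0972). Macrophage and monocyte markers summed to 118 and 113 against 38.4 and 46.6 CPM, most of it Adgre1. Of 5 tested markers on that list, 1 was lower, Adgre1 (-1.63 ± 0.0889), beside 9.54% of all genes tested, and 4 were not called. The list median was 0.30, so the lower sum reflects Adgre1 and not the list as a whole. Stromal and endothelial markers were mostly Pecam1, which was higher (59.8 and 61.5 against 74.9 and 68.4 CPM), a call lost without wild-type library 1 (adjusted p 0.112) or 2 (0.0503), without cKO-labelled library 1 (0.161) and with DESeq2 (0.0876), and megakaryocyte markers mostly Itga2b (0.887 to 1.89 CPM over the 4 libraries). Of 5 plasma cell genes 3 were higher (Jchain, Prdm1 and Xbp1), beside 12.2% of all genes tested, and Irf4 and Sdc1 were not called. Their part in the changes of the trafficking genes was not tested.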

How the data were processed

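RNA sequencing covered poly(A) RNA of 4 cultures. Per the labels' protocols the library kit was NEBNext Ultra RNA, a kit without strand marking. The deposited table gives raw counts per gene, and beside them deposited FPKM values, which the authors computed from the counts, the exonic length and the library total (recomputed values differed by at most 0.005). HISAT2 2.0.1 and HTSeq 0.6.1 are named, per the submitters' processing notes, along with cutadapt 1.9.1, the base caller bcl2fastq 2.17.1.14 and the build GRCm38. How each tool was set is not given in the sources used here.

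Genes were tested with edgeR 4.0.16 (R 4.3.3) after filterByExpr with a minimum count of 10 and a minimum total of 15, using TMM factors and the quasi-likelihood test of genotype on all 4 libraries, followed by Benjamini-Hochberg adjustment over 14180 genes and a threshold of 0.05. Differences are log2, cKO-labelled minus wild type, ± SE, where the SE is the absolute difference divided by the square root of the F statistic. The 95% intervals are the estimate plus or minus a t quantile times that SE. The fit was tested on simulated data. Alternatives covered scaling, filters, DESeq2 1.42.0, the replicate number as a block, GC content, ribosomal RNA rows and each library left out. FPKM served to compare levels between genes and, for sums, shares and ratios of receptors, between libraries, with no test. GENCODE M21 (99.53% of rows matched) gave exons and the GC content of the longest transcript, and bedtools 2.31.1 the exon overlaps.

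The members, the other gene lists and the 13 marker lists were chosen with earlier results of these data known. Named genes were the members, Adar, Cd79a, and from each list up to 5 called genes, taken by smallest adjusted p (8 for KLF2 and FOXO1 targets) or its most abundant tested gene where none was called, the most abundant marker of each cell type with the called dendritic, T-cell and marginal zone markers, and the 5 genes nearest Klf2 and the most changed member. Genes named beyond that rule, to complete a count or as members of a pair, were chosen after their values were seen. Some genes that the rule names, and 1 gene list, are not reported here.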

Additional observations from a re-analysis of the deposited data

How the results depend on the processing

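Klf2, Ccr7 and S1pr3 kept their direction and their call under all 13 alternatives, with log2 differences of -1.18 to -0.92, 0.92 to 1.16 and 1.21 to 1.55. Cxcr5 and Gpr183 were called under none of 13, and S1pr1 under none of the 12 that tested it, since it falls below the filter at a mean of 5 CPM. The calls of Ccr6, Cxcr4 and S1pr4 held under 12, 10 and 8 alternatives. The number of members called was 4 to 6. Over all genes, 3080 were called with edgeR (4587 had an unadjusted p under 0.05) and 2030 with DESeq2, of which 2026 were called by both; the cause was not tested. Leaving out 1 library gave 2277 to 2713 calls, with 4 or 5 members among them, and the lone library of a genotype was then assumed to vary like the others. Upper-quartile scaling moved the share of higher calls from 56.07% to 49.8%, and removal of the GC trend to 58.25%. With the replicate number as a block, 3498 genes, all 3080 among them, and the same 6 members were called. Libraries of the same number did not deviate together (correlation of deviations over genes -0.017), so the numbers were not taken as pairs. The order of levels per length was the same for all 9 genes on TMM-scaled CPM per kilobase. Of the 64 other named genes, 13 lost their call under at least 1 alternative, and none changed sign while called. Low counts limit S1pr1 most, with 74 to 103 counts per library.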

Other observations

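The genes beside the members on their chromosomes mostly did not share the members' changes. The nearest tested genes flanking Klf2, Ap1m1 and Eps15l1, stood at -0.13 ± 0.0617 and -0.095 ± 0.0663 on the log2 scale, and were not called. Those flanking Ccr7, Igfbp4 and Smarce1, stood at -0.069 ± 0.213 and 0.15 ± 0.0594, and were not called either. Next to S1pr3, whose difference was 1.39, Spin1 and Cks2 were called higher by 0.28 ± 0.0766 and 0.26 ± 0.0834. Ncln beside S1pr4 was called lower, at -0.41 ± 0.0623, which is close to the -0.49 of S1pr4 itself, while Gna15 on its other side stood at -0.077 ± 0.258. Mpc1, a mitochondrial pyruvate carrier gene beside Ccr6, went against it at -0.42 ± 0.141. These flanking genes were chosen by position among tested genes, leaving out those named Gm and a number.

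Ackr3 and Cxcr4, both receptors for CXCL12, differed in the size of their rise (3.08 and 0.34 on the log2 scale), and Pik3r5 and Pik3cg, the regulatory and catalytic parts of one kinase, went in opposite directions (1.04 and -0.46). The differences between the genes of each pair were not tested.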
